A study of Mus musculus with 1073 samples.

Results

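Endothelium of the mouse yolk sac was followed across a 2-day interval, from embryonic day (E) 8.5 to E10.5. The cells compared were all those labelled as endothelium at either stage in the filtered tables: 79 cells at E8.5 and 61 at E10.5, which made 140 of the 926 cells of the series. They came from C57BL/6 yolk sacs freed with collagenase and dispase, sorted by surface antigens and processed singly on a Fluidigm C1 chip for RNA sequencing. The gate at both stages took cells that carried CDH5 but neither TER119 nor CD41, and at E10.5 it also left out CD45+ cells. No genotype or treatment other than strain and stage was given, and the chip admits only cells that fit its capture sites, so endothelial cells outside that size range were not sampled. Each stage was 1 sorted population on 1 chip, read in 1 lane of its own flow cell, and no embryo or pool was named for any cell. Stage, chip and flow cell therefore cannot be told apart, each stage counts as 1 sample, and the differences below are given as sizes without a test.

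The first vessels of the embryo form in the yolk sac, where mesodermal cells become endothelium and join into a honeycomb-like plexus beside the first blood cells. After the heart starts to beat, this plexus is remodelled into a branching tree of larger and smaller vessels. Signalling through VEGF receptors drives the growth of endothelium, Tie receptors stabilise it, and Notch signalling together with blood flow is known to divide it into arteries and veins. A part of the early endothelium is also haemogenic and gives rise to blood progenitors.

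The cells differed in complexity as well as stage, and this touches every comparison. Total counts per cell were alike in the middle but wider at E10.5, with 1118365 to 2730963 counts at E8.5 (median 1874645) and 589064 to 4551690 at E10.5 (median 1943904). Fewer genes were detected per cell at E10.5, a median of 6412 against 8437, and this remained after each cell was thinned to 580000 counts (5498 against 7579). Mitochondrial genes took 10% or more of the counts in 3 cells at E8.5 and in 14 at E10.5. At least 5 counts of *Xist* together with at least 5 counts of Y-linked genes, which a single cell is not known to hold together, were found in 59 of the 79 E8.5 cells and 26 of the 61 E10.5 cells. At a minimum of 50 counts of each, there were 15 and 8 such cells. Whether these cells hold RNA of a second cell was not tested. Of the index pairs that mark the cells, 79 were used at E8.5, 80 at E10.5 (before filtering) and 65 at both.

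The labelled cell type was checked against the 7 genes by which the study recognised endothelium, and all 7 were detected in nearly every cell. *Cdh5*, the cadherin of endothelial junctions and the antigen of the gate, was detected in every cell of both stages, from 60.1 to 1565 CPM over the E8.5 cells (median 461) and from 70.6 to 3572 CPM over the E10.5 cells (median 785). *Pecam1*, an adhesion molecule of endothelial cells, was detected in 79 and 60 cells. *Ptprc*, which encodes CD45, had no count in any cell, which allows a share of cells with a count of up to 3.80% at E8.5 and 4.92% at E10.5 and sets no limit on expression. The antigen added to the E10.5 gate thus had no transcript detected at E8.5. *Itga2b*, which encodes CD41, averaged 69.8 CPM in 72 cells at E8.5 and 20.3 CPM in 28 cells at E10.5 although both gates were CD41-. Of the defining genes of other cells, *Slc4a1*, *Hemgn*, *Gp9*, *Ppbp*, *Cx3cr1*, *C1qa* and *Adgre1* had no count in any cell. Others reached the level of measurement used below, an average of 20 CPM over both stages, and are named after their values were seen. The embryonic globin *Hba-x* averaged 0.794 and 75.2 CPM (log2 ratio 5.41, or 3.42 without the highest cell of each stage) and had a count in 11.4% and 29.5% of cells. The leukocyte gene *Lcp1* averaged 72.4 and 172 CPM and *Laptm5* 28.3 and 13.7 CPM. Of the mesenchymal genes, the actin *Acta2* averaged 21.0 and 122.1 CPM, *Tagln* 32.1 and 13.3 CPM and the collagen *Col1a2* 39.3 and 5.92 CPM. The summed CPM of 12 erythroid markers had a median of 0.545 at E8.5 (range 0 to 287) and 5.14 at E10.5 (range 0 to 3695), with means of 21.0 and 133.8. That of 13 macrophage and leukocyte markers had a median of 72.8 (0 to 477) and 23.5 (0 to 2577), and 5 and 8 of these genes were at 0 throughout. For 14 genes of mesenchyme and smooth muscle the medians were 28.4 (0 to 1092) and 0.295 (0 to 6441), with 0 and 6 genes at 0 throughout. For 9 megakaryocyte markers the median was 0 at both stages, and the highest cell had 242 and 665. The 6 visceral endoderm markers had medians of 0 and 0.275, with highest cells at 152.5 and 719. The part of these transcripts in the differences below was not tested.

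Levels are in CPM, the counts scaled to a common library size by the authors, and each difference is the log2 ratio of the mean CPM over cells, plus 1, at E10.5 over E8.5. Of 15967 genes, 7204 averaged 20 CPM or more over the 2 stage means and are called measured. Of these, 1223 (17%) had a mean at least 2-fold higher at E10.5 and 978 (13.6%) a mean at least 2-fold lower. Beyond 4-fold there were 431 and 172 genes. The median log2 ratio over all measured genes was 0.01, with quartiles at -0.60 and 0.68, so the means were centred near equality.

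Single cells gave another picture from the means. Over all pairs of 1 cell from each stage, the E10.5 cell was the higher in 37.9% of pairs for the median gene (quartiles 30.2% and 46.4%), and in more than 50% for 1274 genes (17.7%). The median measured gene was detected in 89.9% of E8.5 cells and 68.9% of E10.5 cells. A gene's share of cell pairs is therefore read below against 37.9%, not against 50%. Without the highest cell of each stage, gene by gene, the calls became 847 higher (11.8%) and 1452 lower (20.2%) and the median log2 ratio -0.23. The share of calls that were higher was 55.6% with all cells and 36.8% without the highest cells. Of the calls, 833 and 971 were shared by both ways of counting. Leaving out cells with transcripts of both sexes gave 1425 higher and 1041 lower, leaving out cells with at least 10 counts of each of 3 or more blood markers (18 and 10 cells) 1331 and 1101, leaving out those with CPM sums over 1500000 (2 and 7 cells) 1055 and 936, and leaving out those with 10% or more mitochondrial counts 987 and 923. No gene had all cells of one stage above all cells of the other, but 17 of the genes called higher were higher in at least 90% of cell pairs and 30 of those called lower were lower in as many. Among genes called higher, 875 were detected in at least 50% of the E10.5 cells and 348 in fewer.

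**Figure D1:**
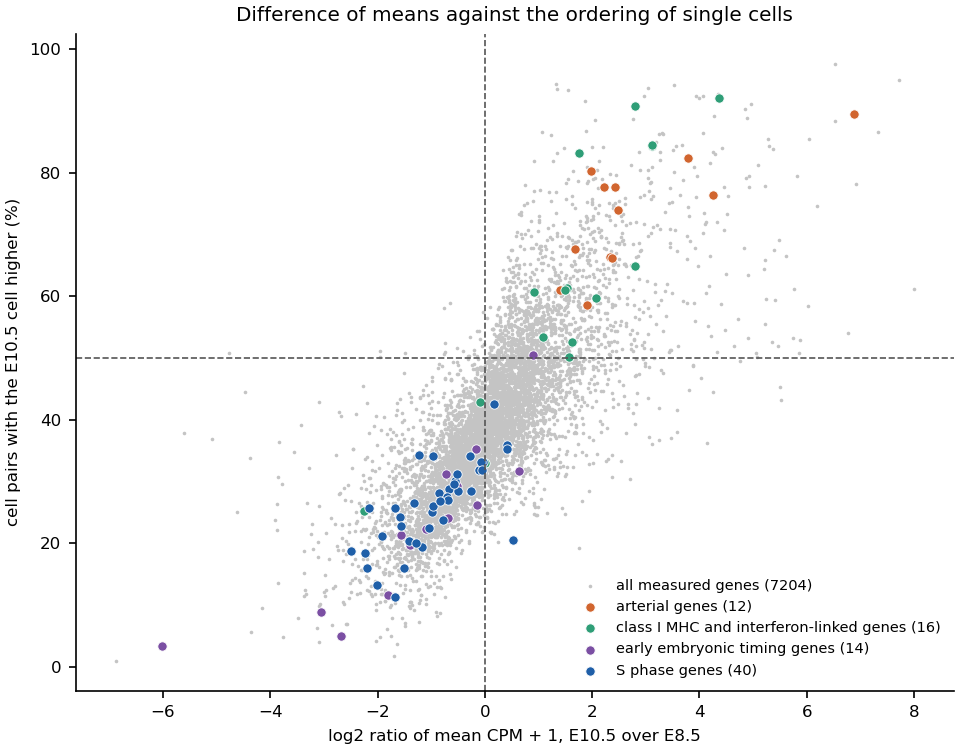
Each point is 1 of the 7204 measured genes, with the log2 ratio of stage means (CPM + 1) on the horizontal axis, positive where E10.5 was higher, and the percent of cell pairs with the E10.5 cell higher on the vertical axis, and 4 gene lists are coloured. Most genes lie below 50% at a ratio near 0, the arterial genes lie at the upper right and the early embryonic timing and S phase genes mostly at the lower left.

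The genes were described in lists by role. Apart from the Hox genes and the markers of other cells, of which at most 3 were measured per list, the lists with the highest medians were those of arterial identity (2.35), Notch signalling (1.90), venous and lymphatic identity (1.78) and class I MHC with interferon-linked genes (1.60). Without the highest cell of each stage these were 2.24, 1.09, 1.14 and 1.60, and the Notch list then lay below those of Tie receptors (1.35), guidance molecules (1.24), flow-responsive genes (1.17) and VEGF receptors and ligands (1.11). The lowest were those of early embryonic timing (-0.91) and S phase (-0.91). The lists with the highest medians hold members that averaged under 20 CPM at E8.5 and were measured only through their E10.5 mean, which had to be higher. These were 6 of 12 arterial, 2 of 7 Notch, 2 of 9 venous and lymphatic and 10 of 16 MHC and interferon-linked genes. Among all 7204 measured genes there were 735, and other lists held such members too.

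**Figure D2:**
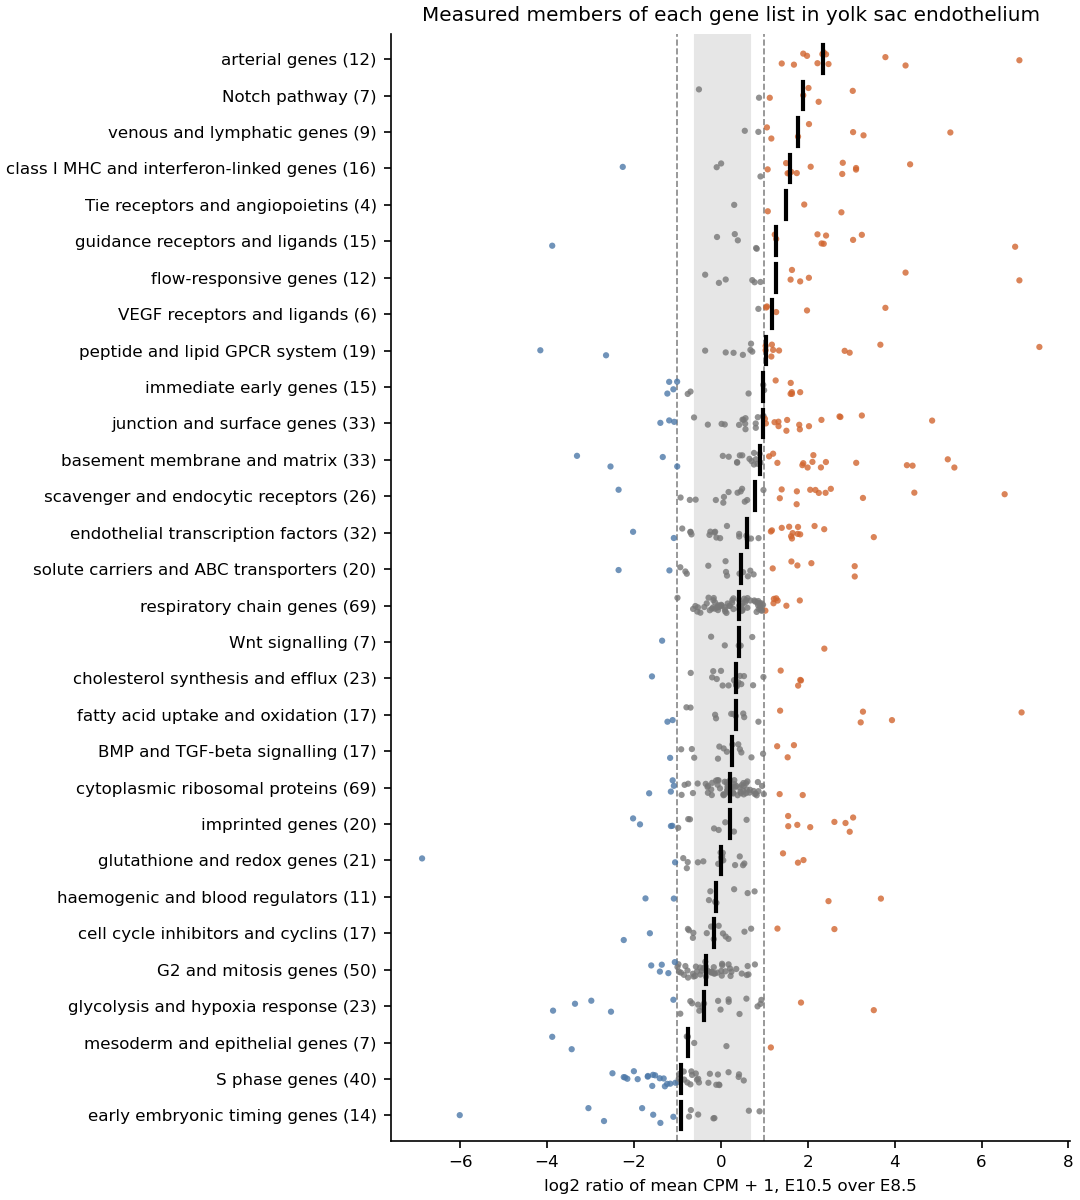
Log2 ratios between stage means of CPM + 1 (horizontal axis, positive where E10.5 was higher) of the measured members of each gene list (rows, number of members in brackets): points are genes, black bars list medians, dashed lines 2-fold, and the grey band the quartiles of all 7204 measured genes, -0.60 and 0.68. All 12 arterial genes lie beyond the right-hand dashed line, while no S phase gene does.

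Of the 7 genes that served as endothelial markers, 4 were at least 2-fold higher at E10.5 and none lower, with a median log2 ratio of 1.03. Among all measured genes 17% were higher and 13.6% lower. *Plvap*, a protein of the diaphragms of endothelial pores, ranged from 0.499 to 504 CPM over the E8.5 cells (median 80.2) and from 0 to 5291 CPM over the E10.5 cells (median 307). The ranges overlapped, but the mean was 2.75 higher on the log2 scale and the E10.5 cell was the higher in 88.6% of cell pairs. *Kdr*, the main signalling receptor for VEGF, went from 739 to 1527 CPM on average, a log2 ratio of 1.05 that was 0.95 without the highest cell of each stage. *Aplnr*, the apelin receptor, had a log2 ratio of 1.16, and *Ramp2*, the partner of the adrenomedullin receptor, 1.03. *Tek*, the angiopoietin receptor TIE2, and *Pecam1* were within 2-fold (0.31 and 0.50).

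Of 6 measured VEGF receptors and ligands, 5 were called higher and none lower (median 1.17), beside 17% and 13.6% of all measured genes. *Vegfc* was measured only through its E10.5 mean, which had to be higher. The other 5 reached 20 CPM at E8.5, and 4 of them were called higher. Among all genes at that level 9.63% were. *Flt1*, a receptor that binds VEGF with little signalling of its own, was between 19.4 and 1428 CPM at E8.5 (median 407) and between 0.917 and 7908 at E10.5 (median 769). Its log2 ratio was 1.27 and the stages overlapped widely. *Nrp1*, a co-receptor, rose in mean from 268 to 1063 CPM (log2 1.98). *Flt4*, the receptor of the lymphatic growth factor VEGFC, had a log2 ratio of 1.06. *Vegfc*, its ligand, was detected in 20 of 79 cells (25.3%, 16.2 to 36.4%) at E8.5 and 51 of 61 cells (83.6%, 71.9 to 91.8%) at E10.5, where the brackets hold exact Clopper-Pearson 95% intervals that cover counting error only. Its mean went from 5.99 to 95.5 CPM (log2 3.79). *Nrp2* stayed under 2-fold (0.86).

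Among the Tie receptors and their regulators, 3 of 4 measured genes were called higher, beside 17% of all measured genes. The list's median of 1.4998 was -0.0647 when medians over cells were compared. *Ptprb*, a phosphatase that acts on TIE2 and on junctional cadherin, ranged from 2.47 to 740.4 CPM over the E8.5 cells (median 192) and from 0.306 to 3509 CPM over the E10.5 cells (median 675), with a log2 ratio of 1.92 and 78.6% of cell pairs. *Tie1*, an orphan receptor that modulates TIE2, had a larger ratio (2.77) but nearly equal medians, 37.4 and 42.8 CPM. A single E10.5 cell held 11346 CPM, and without the highest cell of each stage the ratio was 1.66. *Angpt2*, an angiopoietin, was found in 40 and 25 cells and its log2 ratio was 1.08.

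Of 7 measured genes of the Notch pathway, 5 were called higher, beside 17% of all measured genes. Of the 6 pathway members that reached 20 CPM at E8.5, 3 were called higher and 1 lower, beside 9.63% and 18% of all genes at that level. The ligand *Jag1* ranged from 0 to 509 CPM over the E8.5 cells (median 6.38) and from 0 to 2512 CPM over the E10.5 cells (median 137.5). Most E10.5 cells were above the E8.5 median although the ranges overlapped, and the mean went from 42.5 to 356 CPM (log2 3.04, 79.2% of cell pairs). The ligand *Dll4*, which marks arteries and sprout tips, had a log2 ratio of 1.90 and was detected in 56 of 79 and 47 of 61 cells. The receptor *Notch4* averaged 12.6 and 64.0 CPM (log2 2.25), while *Notch1* stayed under 2-fold (0.88). *Hes1*, a transcriptional target, had a ratio of 1.13. *Mfng*, an enzyme that adds sugars to Notch receptors, turned from 2.02 to -1.06 without the highest cell of each stage, since 1 cell held 6574 CPM. The targets *Hey1* and *Hey2*, named after their values were seen, were below the level of measurement and were detected in 17 and 6 cells at E8.5 and in 11 and 11 at E10.5.

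The data held 17 arterial genes, of which 12 were measured, and each of these was called higher, also without the highest cell of each stage. Among all measured genes 17% were called higher. Of the 12 genes 6, *Gja5* and *Gja4* among them, averaged under 20 CPM at E8.5 and were measured only through their E10.5 mean, which had to be higher. The other 6 (*Efnb2*, *Dll4*, *Nrp1*, *Mecom*, *Igfbp3* and *Acvrl1*) reached 20 CPM at E8.5 alone and were called higher, whereas 9.63% of all 6833 genes at that E8.5 level were. The 5 members not measured were *Cxcr4*, *Hey1*, *Hey2*, *Bmx* and *Cxcl12*, with counts in 1, 17, 6, 0 and 0 cells at E8.5 and in 15, 11, 11, 15 and 19 cells at E10.5. *Gja5*, on chromosome 3 (GRCm38, chr3:96904693-97077416, plus strand), encodes a connexin of arterial gap junctions and had the largest ratio of the list. It ranged from 0 to 96.0 CPM over the E8.5 cells (median 0) and from 0 to 4427 CPM over the E10.5 cells (median 6.28). It was detected in 5 of 79 cells (6.33%, 2.09 to 14.2%) at E8.5 and in 51 of 61 cells (83.6%, 71.9 to 91.8%) at E10.5, so that at E8.5 nearly all cells lacked a count and at E10.5 most had at least 1. The E10.5 cells with a count reached down to 0.24 CPM, so the share includes cells near the floor. The summed counts were 291 counts (259 to 326) over the E8.5 cells and 36222 counts (35849.9 to 36597) over the E10.5 cells, with exact Poisson 95% intervals for counting error in brackets. The mean went from 1.76 to 322 CPM (log2 6.87), and the E10.5 cell was higher in 89.5% of pairs. On counts thinned to a common total, *Gja5* was still detected in 3 and 38 cells.

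*Gja4*, a second arterial connexin (chr4:127311421-127314039, minus strand), was detected in 11 cells at E8.5 and 40 at E10.5, with means of 15.8 and 319 CPM (log2 4.25). *Efnb2*, the ephrin ligand that marks arteries (chr8:8617434-8661242, minus strand), ranged from 0 to 755 CPM over the E8.5 cells (median 37.0) and from 0 to 3036 CPM over the E10.5 cells (median 415). The means were 110.3 and 519 CPM (log2 2.22), and unlike *Gja5* the gene was already present in 62 E8.5 cells. *Mecom*, a transcription factor of arteries and haemogenic cells, had a log2 ratio of 2.48. *Unc5b*, a netrin receptor of arteries and tip cells, had 2.42. *Igfbp3* (insulin-like growth factor binding) had 2.34, the secreted semaphorin *Sema3g* 2.37, the BMP receptor *Acvrl1* 1.68 and the transcription factor *Sox17* 1.40. *Cxcr4*, a chemokine receptor of arterial endothelium named after its values were seen, was not measured by the CPM limit and had a count in 1 of 79 and 15 of 61 cells.

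**Figure D3:**
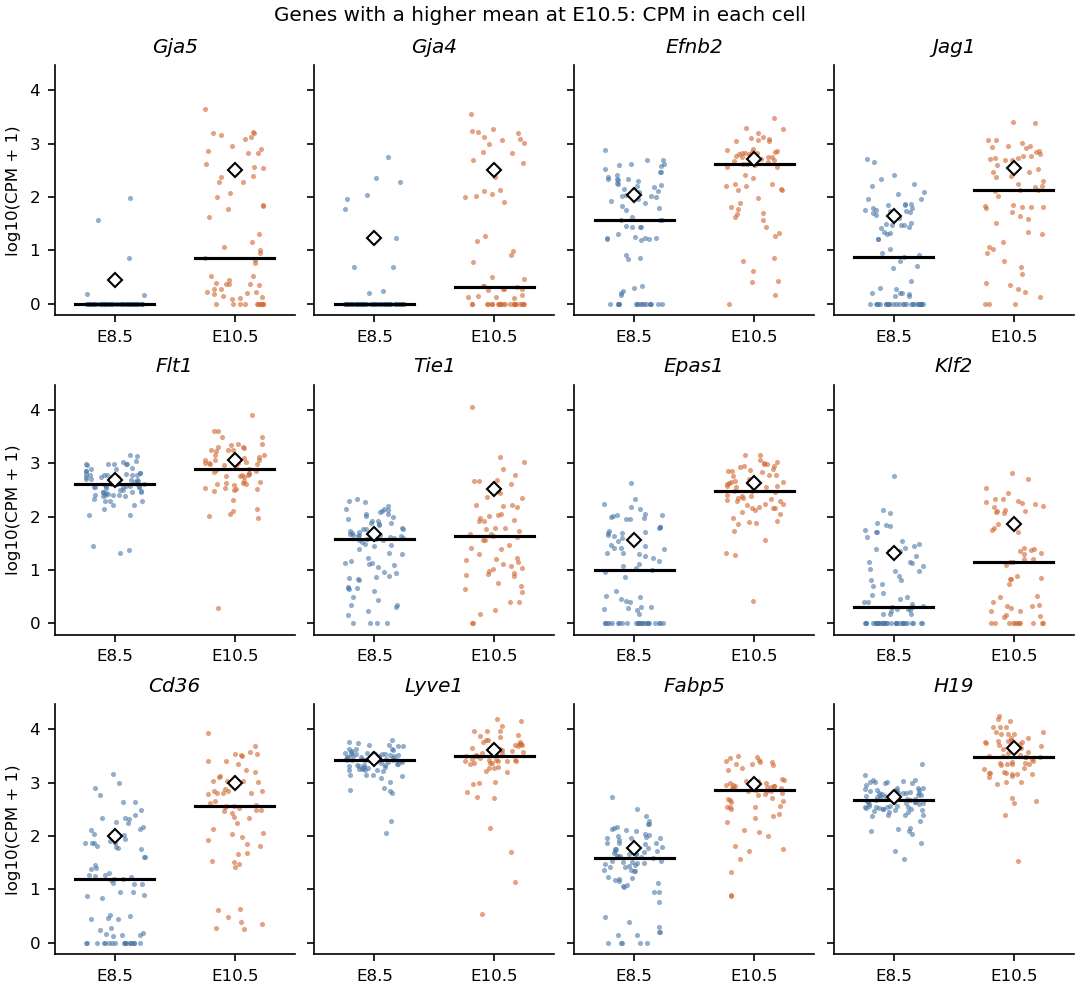
CPM in each cell on a log10(CPM + 1) axis for 12 genes with a higher mean at E10.5, with E8.5 cells on the left and E10.5 cells on the right of each panel, black bars at the median and open diamonds at the mean. *Gja5* had a count in 5 E8.5 cells and 51 E10.5 cells, and *Tie1* had nearly equal medians (37.4 and 42.8 CPM) with 1 E10.5 cell far above the rest.

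The E10.5 cells also differed among themselves along the arterial genes. Spearman's rho over cells, averaged over the 66 pairs of the 12 arterial genes, was 0.05 at E8.5 (79 cells) and 0.30 at E10.5 (61 cells). The median over all pairs of measured genes was 0.03 and 0.02, and thinning to equal counts gave arterial means of 0.04 and 0.29. Without cells holding both *Xist* and Y-linked counts the values were 0.05 (20 cells) and 0.35 (35 cells). *Gja5*, *Gja4*, *Vegfc* and *Unc5b* had no count in most E8.5 cells, so that rho at that stage rests on few cells for their pairs. Over the 28 pairs of the 8 arterial genes detected in at least 50% of the cells of both stages the mean was 0.05 at E8.5 and 0.22 at E10.5, and the median over all pairs of the 5119 genes so detected was 0.03 at both. At E10.5, *Gja5* ran with *Gja4* (rho 0.66, with 37 cells holding both), *Cxcr4* (0.60), *Unc5b* (0.55), *Efnb2* (0.51), *Vegfc* (0.49) and *Dll4* (0.47). It ran against *Aplnr*, a receptor of venous and capillary endothelium (-0.36), as did *Gja4* (-0.42). With the other venous and lymphatic genes the rho of *Gja5* varied: *Flt4* -0.38, *Pdpn* -0.28, *Emcn* -0.25, *Nr2f2* -0.19, *Ephb4* and *Nrp2* -0.11, *Lyve1* -0.00 and *Vwf* 0.20. At E8.5 the rho of *Gja5* and *Gja4* was 0.22, with only 2 cells holding both. These correlations describe cells that share 1 chip and lane per stage, and carry no test.

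**Figure D4:**
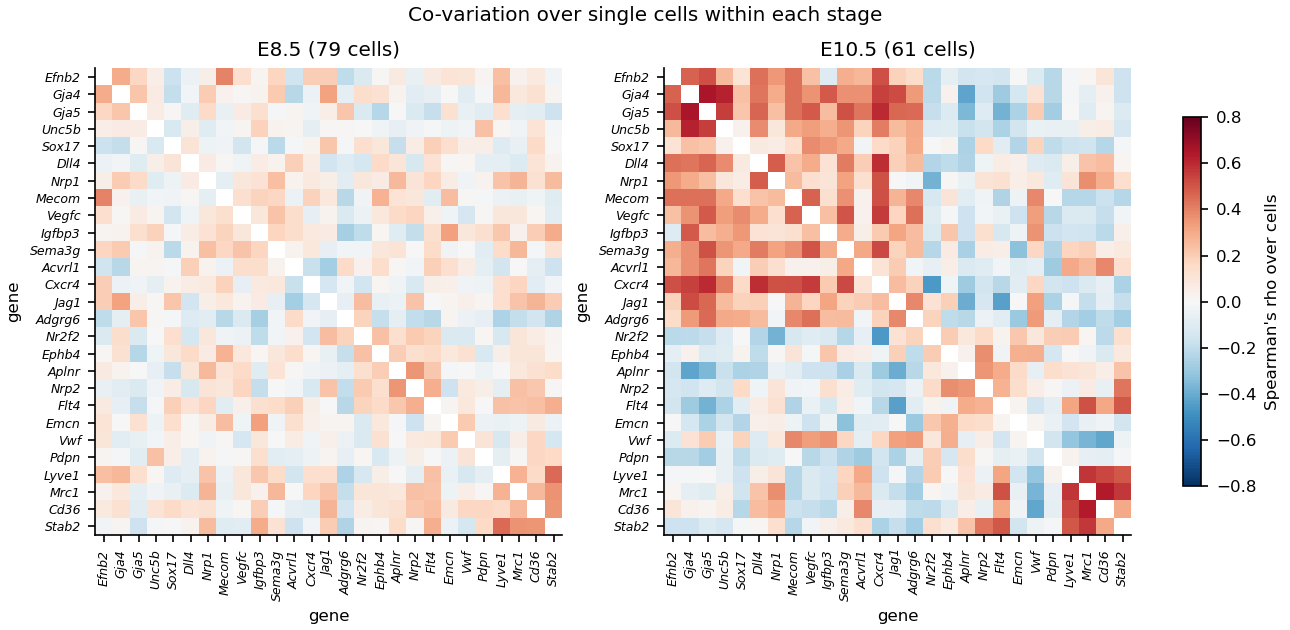
Spearman's rho over cells between arterial, venous and scavenger receptor genes (both axes list genes, colour from blue for negative to red for positive rho) within the 79 E8.5 cells and within the 61 E10.5 cells. A block of positive values among arterial genes stands out at E10.5, with a mean of 0.30 over 66 pairs against 0.05 at E8.5. Some of these genes had no count in most E8.5 cells. Over the 28 pairs of 8 arterial genes detected in at least 50% of the cells of both stages the means were 0.22 and 0.05.

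Venous and lymphatic genes were higher as well: 7 of 9 measured members were called higher and none lower (median 1.78), and without the highest cells 6 were higher and 1 lower. Among all measured genes 17% were called higher and 13.6% lower, or 11.8% and 20.2% without the highest cells. Venous and lymphatic members at 20 CPM or more at E8.5 numbered 7, with 5 higher and none lower. Among all genes at that level 9.63% were higher and 18% lower. *Vwf*, the clotting factor carrier stored by endothelium, was detected in 4 cells at E8.5 and 46 at E10.5, and its mean went from 1.21 to 84.9 CPM (log2 5.28). *Emcn*, a sialomucin of veins and capillaries, had means of 168 and 687 CPM (log2 2.03). *Nr2f2*, the transcription factor of venous identity, was detected in 61 and 60 cells, with medians of 15.9 and 27.0 CPM and a log2 ratio of 1.78. *Ephb4*, the venous receptor of *Efnb2*, went from 3.04 to 1.69 without the highest cells. *Pdpn*, a lymphatic glycoprotein, went from 3.28 to -1.52 and was seen in only 4 E10.5 cells.

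The scavenger receptor *Lyve1*, known as a marker of lymphatic and early yolk sac endothelium, was detected in every cell of both stages, from 113.2 to 6269 CPM over the E8.5 cells (median 2701) and from 2.45 to 16045 CPM over the E10.5 cells (median 3209). Its means, 2754 and 4036 CPM, were within 2-fold (log2 0.55). The venous and lymphatic genes co-varied little at either stage (mean rho 0.06 at E8.5 and 0.08 at E10.5). The arterial pairs had a like value at E8.5 (0.05) and a higher one at E10.5 (0.30). The mean rho of venous and lymphatic with arterial genes was 0.03 at E8.5 and -0.08 at E10.5. *Lyve1*, *Mrc1*, *Cd36* and *Stab2*, a quartet chosen after the values were seen, had a mean rho of 0.31 at E8.5 and 0.52 at E10.5. *Gja5* and *Lyve1* had a rho near 0 at E10.5 (-0.00).

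Of the uptake receptors and caveolar proteins, 12 of 26 were called higher and 1 lower, beside 17% and 13.6% of all measured genes. Through their E10.5 mean alone, which had to be higher, 3 of the 26 were measured. Members at 20 CPM or more at E8.5 numbered 23, with 9 called higher and 1 lower. Among all genes at that level 9.63% were higher and 18% lower. *Sdpr*, a cavin that shapes caveolae, ranged from 0 to 113.4 CPM over the E8.5 cells (median 0.511) and from 0 to 5252 CPM over the E10.5 cells (median 562), and the E10.5 cell was higher in 97.7% of pairs, the highest share of any measured gene (log2 6.53). *Cav1*, the main caveolar coat protein, was detected in 3 of 79 and 36 of 61 cells (log2 4.45). *Cd36*, a receptor for fatty acids and thrombospondin, had means of 101.3 and 987 CPM (log2 3.27). The hyaluronan scavenger *Stab2* had 1.74, the IgG-recycling receptor *Fcgrt* 2.41, the podoplanin receptor *Clec1b* 2.25 and the lysosomal protease *Ctsb* 2.18. *Tfrc*, the transferrin receptor, was the member called lower, with 48 and 9 cells detected and a log2 ratio of -2.35. The mannose receptor *Mrc1* averaged 1559 and 2035 CPM, within 2-fold.

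Of 32 measured endothelial transcription factors, 13 were called higher and 2 lower (median 0.60), beside 17% and 13.6% of all measured genes. Through their E10.5 mean alone, which had to be higher, 3 of the 32 were measured. The factors at 20 CPM or more at E8.5 numbered 29, with 10 higher and 2 lower. Among all genes at that level 9.63% were higher and 18% lower. *Epas1*, an oxygen-regulated factor (chr17:86753700-86833410, plus strand), had the largest ratio of the list. It ranged from 0 to 434 CPM over the E8.5 cells (median 8.90) and from 1.66 to 1445 CPM over the E10.5 cells (median 299). Every E10.5 cell had a count, the mean went from 35.5 to 418 CPM (log2 3.52) and 94.3% of pairs had the E10.5 cell higher. *Foxp1* and *Meis2* followed (2.38 and 2.16), then *Klf2*, induced by laminar flow (1.83), and *Sox7* (1.65). *Mef2a* at 1.77 rested on 1 cell with 12819.7 CPM and was 0.52 without the highest cells. *Peg3* (-2.02) and *Meis1* (-1.08) were lower, whereas *Tal1*, *Hhex* and *Bcl6b* were within 2-fold (-0.10, -0.13 and -0.02).

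Flow-responsive genes were called higher in 6 of 12 cases and lower in none, beside 17% and 13.6% of all measured genes. Of the 12, 4 were measured only through their E10.5 mean, which had to be higher, *Gja5* and *Gja4* among them. Of the 9 list members that reached 20 CPM at E8.5, 2 were called higher and 1 lower, beside 9.63% and 18% of all genes at that level. *Gja5* and *Gja4* are also arterial genes, and *Klf2*, *Klf4* and *Cyr61*, all called higher, are also on the immediate early list. Only *Thbd* of the genes called higher is on neither of those lists. *Thbd*, the anticoagulant thrombin receptor thrombomodulin, had means of 89.6 and 368 CPM (log2 2.03), and *Klf4* a log2 ratio of 1.64 with 26 and 27 cells detected. *Nos3*, the nitric oxide synthase of endothelium, the mechanosensitive channel *Piezo1* and the sphingolipid receptor *S1pr1* did not share this (0.11, -0.04 and -0.36).

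In the list of receptors for peptides and lipids 10 of 19 genes were called higher and 2 lower, beside 17% and 13.6% of all measured genes. Through their E10.5 mean alone, which had to be higher, 2 of the 19 were measured. Members at 20 CPM or more at E8.5 numbered 17, with 8 higher and 2 lower. Among all genes at that level 9.63% were higher and 18% lower. *Apln*, the apelin ligand of tip cells, was detected in 70 of 79 cells (88.6%, 79.5 to 94.7%) at E8.5 and 8 of 61 cells (13.1%, 5.84 to 24.2%) at E10.5, from 0 to 506 CPM over the E8.5 cells (median 56.0) and from 0 to 132.3 CPM over the E10.5 cells (median 0). Its mean went from 91.9 to 4.22 CPM (log2 -4.15), opposite to that of its receptor *Aplnr*. The endothelin receptor *Ednrb* was also lower (-2.64). *Npr3* and *Npr1*, the clearing and the signalling receptor for natriuretic peptides, were higher (3.67 and 2.96), as were the lysophosphatidic acid receptor *Lpar4* (2.85) and the adrenomedullin receptor *Calcrl* (1.20), whose mean at E10.5 was 3578 CPM. *Adgrg6*, an adhesion receptor, was seen in 3 cells at E8.5 and 47 at E10.5.

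Among guidance genes, 9 of 15 were called higher and 1 lower, beside 17% and 13.6% of all measured genes. Through their E10.5 mean alone, which had to be higher, 3 of the 15 were measured. Members at 20 CPM or more at E8.5 numbered 12, with 6 higher and 1 lower. Among all genes at that level 9.63% were higher and 18% lower. *Robo4*, an endothelial receptor that stabilises vessels, ranged from 0 to 248 CPM over the E8.5 cells (median 3.06) and from 0.306 to 3444 CPM over the E10.5 cells (median 116.6), with a log2 ratio of 3.25 and 86.2% of pairs. *Slit2*, a secreted ligand of the Robo family, had 2.32. *Sema3a*, a repulsive ligand, was lower, with 51 and 7 cells detected (log2 -3.88). *Sema3d* had no count in 79 E8.5 cells and counts in only 5 E10.5 cells, 1 of them at 6418 CPM, so no ratio is given although it counts among the genes called higher.

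Junction and surface genes were higher in 15 of 33 cases and lower in 3 (*Ocln*, *Cgnl1* and *Ctnna1*), beside 17% and 13.6% of all measured genes. Through their E10.5 mean alone, which had to be higher, 2 of the 33 were measured. Members at 20 CPM or more at E8.5 numbered 31, with 13 higher and 3 lower. Among all genes at that level 9.63% were higher and 18% lower. *Cd200*, an immune-regulatory surface protein, had means of 2.05 and 87.7 CPM (log2 4.86). *Esm1*, a proteoglycan of tip cells, had 2.73, the tetraspanin *Cd9* 2.32 and the desmosomal and adherens junction protein *Jup* 1.80. *Ctnnb1*, which links cadherins to actin, stayed at 535 and 569.6 CPM.

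Of 33 measured matrix genes, 15 were called higher and 4 lower, beside 17% and 13.6% of all measured genes. Of the 29 list members that reached 20 CPM at E8.5, 9 (31%) were higher and 5 (17.2%) lower. Among all genes at that level 9.63% were higher and 18% lower. *Col15a1*, a collagen of vascular basement membranes, was detected in 3 and 43 cells (log2 5.37), and *Col13a1* in 33 and 53 (4.28). *Sparcl1*, a secreted matrix protein, had means of 15.5 and 351 CPM (4.41), and the fibrillar collagen *Col5a2* 26.6 and 238 CPM (3.12). The laminin *Lama1* depended on 1 cell, with 5.22 and 2.28 with and without the highest cells. *Tnc*, which encodes tenascin, and *Col1a2*, a fibrillar collagen of mesenchyme, were lower (-3.31 and -2.54).

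The BMP and TGF-beta list had a median of 0.27. Of 17 measured genes, 3 were called higher and 1 lower, the former close to the 17% of all measured genes. The receptor *Tgfbr2* had a log2 ratio of 1.54. Of 7 Wnt genes, *Fzd4*, a frizzled receptor, was higher (2.38, or 1.80 without the highest cells) and its co-receptor *Tspan12* lower (-1.35). Such shares are near the 17% and 13.6% of all measured genes.

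Among regulators of blood formation 2 of 11 measured genes were called higher and 2 lower, near the 17% and 13.6% of all measured genes, with a median log2 ratio of -0.10. *Cd44*, a hyaluronan receptor, went from 23.4 to 313 CPM on average (3.68). *Itga2b* was the furthest lower (-1.73). *Gata2* and *Kit*, both of haemogenic endothelium and progenitors, were within 2-fold (-0.24 and -0.27).

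The class I MHC and interferon-linked list, chosen with earlier results of these cells known, had 12 of 16 measured members called higher and 1 lower. Among all measured genes the shares were 17% and 13.6%. The list's counts were the same without the highest cells. Of the 16 members, 10 averaged under 20 CPM at E8.5 and were measured only through their E10.5 mean, which had to be higher. Of the 6 members that reached 20 CPM at E8.5, 3 were called higher and 1 lower, beside 9.63% and 18% of all genes at that level. Class I molecules present peptides on the surface of most cells and are known to be scarce on early embryonic cells. GAAA followed by any 2 bases and a second GAAA, the core of the element that interferon-regulated factors bind, was searched on both strands of the 250 bases before the start of each gene (RefSeq, GRCm38.p6). It stood in 4 of 14 list members with a promoter in the table (28.6%), in 2.96% of 5241 measured genes and in 2.98% of all 32851 promoters. The list was made of interferon-linked genes, so this excess comes with the choice of members and does not bear on the change between stages. All 4 were called, but so were 11 of the 14 members matched. These 4 stretches are shown because they are the members' matches, with the letters in capitals, a match on the other strand reading TTTC, 2 bases, TTTC:
B2m (chr2:122147528-122147577, plus strand): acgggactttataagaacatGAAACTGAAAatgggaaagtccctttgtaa
Ifitm2 (chr7:140955978-140956027, minus strand): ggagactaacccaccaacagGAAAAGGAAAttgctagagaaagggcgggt
Bst2 (chr8:71537567-71537616, minus strand): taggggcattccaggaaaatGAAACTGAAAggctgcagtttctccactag
Stat2 (chr10:128270256-128270305, plus strand): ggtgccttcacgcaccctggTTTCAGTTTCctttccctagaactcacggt
*Bst2* held a second match that overlapped this one. A match describes the letters and is not evidence of binding.

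*B2m*, the light chain shared by class I molecules, was detected in every E10.5 cell, from 0 to 591 CPM over the E8.5 cells (median 66.8) and from 12.5 to 1809.8 CPM over the E10.5 cells (median 609). The mean went from 86.3 to 609.5 CPM (log2 2.81) and the E10.5 cell was higher in 90.8% of pairs. The heavy chain *H2-D1* was detected in 28 and 58 cells with means of 17.3 and 156.9 CPM (3.11), though its reads may be shared with near-identical class I genes. *Ifitm3*, an antiviral membrane protein, ranged from 0 to 271 CPM over the E8.5 cells (median 0.432) and from 0 to 843 CPM over the E10.5 cells (median 281) and had 4.36, while its relative *Ifitm2* was already at 171 CPM at E8.5 and reached 576 (1.75). *Bst2*, which tethers virus particles, had 2.79 and the interleukin receptor *Il1r1* 3.11. *Irf9*, a subunit of the interferon-activated complex, had 2.07. The receptor *Tlr4* was lower, with 54 and 11 cells detected (-2.26). In the blood lineages sampled at these stages the list had 4 of 5 measured members called higher in megakaryocytes (13% of all measured genes were higher there) and 10 of 13 in haematopoietic progenitors (5.65%). The sort gates of these lineages also changed with stage.

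Genes of early embryonic timing were lower, with 0 of 14 measured members called higher and 7 lower, against 13.6% of all measured genes. *Lin28a* (chr4:134003330-134018841, minus strand) encodes a protein that blocks maturation of let-7 microRNAs. It ranged from 0 to 483 CPM over the E8.5 cells (median 73.9) and from 0 to 15.5 CPM over the E10.5 cells (median 0), and nearly all E8.5 cells were above the E10.5 median. It had counts in 76 of 79 cells (96.2%, 89.3 to 99.2%) at E8.5 and 5 of 61 cells (8.20%, 2.72 to 18.1%) at E10.5, and 69 and 5 cells on thinned counts. The mean went from 101.8 to 0.595 CPM (log2 -6.01), and the E10.5 cell was higher in 3.38% of pairs. Its relative *Lin28b* (-3.05) and the let-7-controlled chromatin protein *Hmga2* (502 and 142.1 CPM, -1.81) were lower as well. *Hmga1* had -2.69, the methyltransferase *Dnmt3b* -1.56, the stem cell factor *Sall4* -1.39 and *Myc* -1.09. *Dnmt1*, which maintains DNA methylation, and the RNA-binding *Igf2bp1* were within 2-fold (-0.15 and -0.17). Keratins *Krt18* and *Krt8* were lower too (-3.88 and -3.43), but their medians at E8.5 were 0.488 and 0 CPM, and 1 E8.5 cell held 6430.0 CPM of *Krt18*.

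**Figure D5:**
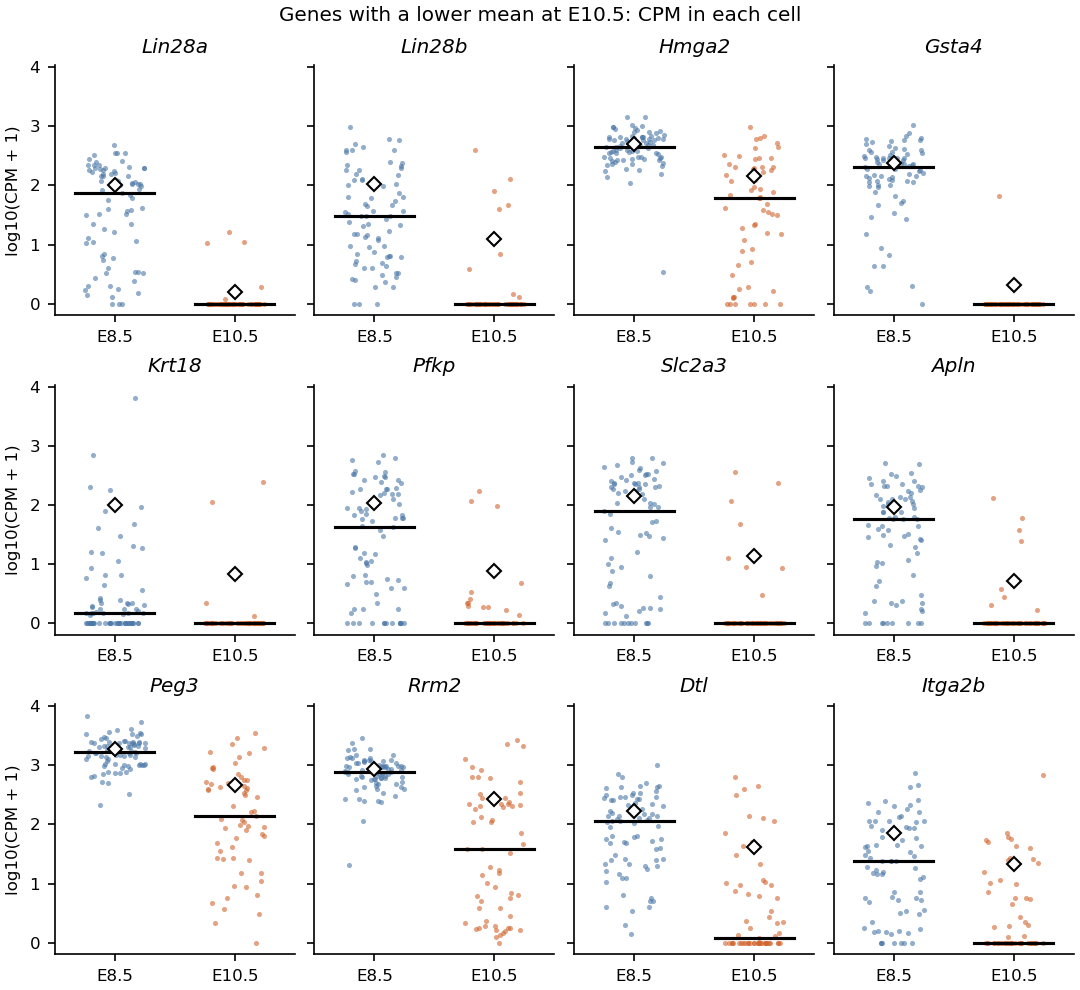
CPM in each cell on a log10(CPM + 1) axis for 12 genes with a lower mean at E10.5, with E8.5 cells on the left and E10.5 cells on the right of each panel, black bars at the median and open diamonds at the mean. *Lin28a* had a count in 76 E8.5 cells and 5 E10.5 cells and *Gsta4* in 78 and 1, whereas *Rrm2* and *Dtl* spread over a wide range at both stages.

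Genes of DNA replication were lower at E10.5: of 40 measured S phase genes 0 were called higher and 17 lower (median -0.91), and 21 were lower without the highest cells. Among all measured genes 13.6% were lower, or 20.2% without the highest cells. E2F factors are known to switch on such genes at the start of S phase. Their site was searched in the same promoter windows as the letters TTTGGCGC, TTTCCCGC, TTTGCCGC and TTTCGCGC on both strands. It was found in 9 of 28 list members matched (32.1%), in 4.39% of 5241 measured genes and in 1.86% of all promoters, and in 7 of the 13 called members matched. The list was made of replication genes, so the excess over all genes comes with the choice of members. Examples from members called lower follow, with the matching letters in capitals:
Dtl (chr1:191575545-191575572, minus strand): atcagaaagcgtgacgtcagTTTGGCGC
Cdc6 (chr11:98907993-98908040, plus strand): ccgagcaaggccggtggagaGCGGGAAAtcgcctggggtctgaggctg
Uhrf1 (chr17:56304108-56304155, plus strand): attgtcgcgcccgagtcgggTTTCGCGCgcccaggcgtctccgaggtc
Hells (chr19:38930908-38930955, plus strand): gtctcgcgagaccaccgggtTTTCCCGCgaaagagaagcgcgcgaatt
The match in *Cdc6* is the reverse complement of TTTCCCGC, and the other 3 read as listed.

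*Cdc6*, which loads the replicative helicase, ranged from 0 to 1192 CPM over the E8.5 cells (median 131.9) and from 0 to 483 CPM over the E10.5 cells (median 0). It had no count in most E10.5 cells and in few E8.5 cells, with 74 and 24 cells detected, and a log2 ratio of -2.20. *Dtl*, a replication-coupled ubiquitin ligase adaptor, had -2.001, the helicase subunit *Cdc45* -2.49 and the S phase cyclin *Ccne2* -2.23. *Rrm2*, a subunit of the enzyme that makes deoxynucleotides, had medians of 782 and 36.9 CPM and means of 862 and 268 CPM (-1.68). *Slbp*, which processes histone messages, and *Usp1* were within 2-fold (-0.07 and -0.04).

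Of the mitotic genes 0 of 50 were called higher and 5 lower, the latter under the 13.6% of all measured genes, with a median of -0.34. Without the highest cell of each stage 10 of 50 were lower, where 20.2% of all genes were. By the mean of log2(CPM + 1) over cells, the list's median less that of all measured genes was -1.26, and 2 of 50 members lay above the all-gene median. The kinases *Ttk* and *Bub1* had -1.60 and -1.36. *Mki67*, a general marker of cycling cells, had nearly equal means of 503 and 506 CPM. Its medians were 471 and 118.9 CPM and the E10.5 cell was higher in 37.3% of pairs, near the 37.9% of the median gene. The inhibitors *Cdkn1c* and *Cdkn1b*, which restrain cyclin-dependent kinases, were higher (2.61 and 1.30), and the cyclin *Ccnd3* lower (-1.63).

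The lists of glucose and fatty acid use were mixed. Of 23 genes of glycolysis and the hypoxia response, 2 were higher and 5 lower, beside 17% and 13.6% of all measured genes. *Slc2a3*, a glucose transporter, had counts in 68 and 8 cells and went from 140.8 to 12.8 CPM on average (-3.36). *Hk2* and *Pfkp*, the early kinases of the pathway, had -2.98 and -3.86, *Pgk1* -2.53 and *Eno1* -1.09, whereas the other hexokinase *Hk1* was higher (1.84). Of 17 genes of fatty acid use, 5 were higher and 2 lower, the latter near the 13.6% of all genes. Through their E10.5 mean alone, which had to be higher, 2 of the 17 were measured. Fatty acid genes at 20 CPM or more at E8.5 numbered 16, with 3 higher and 3 lower (18.8% each). Among all genes at that level 9.63% were higher and 18% lower. *Fabp5*, a carrier of fatty acids in the cytoplasm, ranged from 0 to 531 CPM over the E8.5 cells (median 38.4) and from 6.56 to 3131 CPM over the E10.5 cells (median 722), with 92.5% of pairs and a log2 ratio of 3.94. *Cpt1a*, the gate of mitochondrial fatty acid oxidation, was detected in 6 and 38 cells, and 1 E10.5 cell held 20322 CPM (6.92, or 5.96 without the highest cells). The oxidation enzyme *Hadhb* and the acyl-CoA synthetase *Acsl4* were lower (-1.11 and -1.23) and *Hadh* within 2-fold (-0.11).

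Of 23 cholesterol genes, 4 were called higher and 1 lower, the former near the 17% of all genes, with the sterol carrier *Stard4* at 1.84. Respiratory chain genes were called higher in 7 of 69 cases (*Atp5h* 1.27, in 81.9% of pairs) and lower in 0, under the 17% and 13.6% of all genes. The list's median share of cell pairs was 47.6%, above the 37.9% of the median gene. By the mean of log2(CPM + 1) over cells, 50 of 69 respiratory chain genes lay above the all-gene median. Ribosomal protein genes gave 2 higher and 4 lower of 69, under the 17% and 13.6% of all genes, and *Rps23* turned from 1.88 to -0.27 without the highest cells. Their median share of cell pairs was 48.1%, and 60 of 69 lay above the all-gene median by mean log2. Among transporters, the iron exporter *Slc40a1* was higher (3.08) and the iron store *Fth1* lower (-1.18). Of 20 measured transporters 6 were called higher and 2 lower, beside the same 17% and 13.6%. Through their E10.5 mean alone, which had to be higher, 2 of them were measured. Transporters at 20 CPM or more at E8.5 also numbered 20, with 4 higher and 4 lower. That is 20% each, beside 9.63% and 18% of all genes at that level.

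*Gsta4*, a glutathione transferase that detoxifies lipid peroxidation products, had the largest fall in mean of all measured genes (log2 -6.88), from 0 to 1056 CPM over the E8.5 cells (median 202) and from 0 to 64.5 CPM over the E10.5 cells (median 0). Counts were found in 78 of 79 cells (98.7%, 93.1 to 99.97%) at E8.5 and 1 of 61 cells (1.64%, 0.0415 to 8.80%) at E10.5. Its list was near the 17% and 13.6% of all measured genes, with 3 of 21 higher and 2 lower, and *Gstp1* and *Gpx3*, a transferase and a secreted peroxidase, were higher (1.90 and 1.43).

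Imprinted genes, which are expressed from 1 parental copy, split: 8 of 20 measured were called higher and 4 lower, beside 17% and 13.6% of all measured genes. The growth factor *Igf2* ranged from 37.8 to 1108 CPM over the E8.5 cells (median 359) and from 28.4 to 13989.7 CPM over the E10.5 cells (median 2349.9). The E10.5 median was above every E8.5 cell, and the log2 ratio was 2.97 with 92.5% of pairs. *H19*, the non-coding RNA beside it on the chromosome, had medians of 483 and 3115 CPM (3.04). *Igf2r*, the receptor that clears IGF2, was higher too (2.06), as was *Airn* within the same locus (2.87). The *Airn* and *Igf2r* transcripts overlap on opposite strands and their reads may not be separable. *Peg3*, a zinc finger protein, went the other way, from 209.8 to 6913 CPM over the E8.5 cells (median 1699.6) and from 0 to 3559.6 CPM over the E10.5 cells (median 136.2) (-2.02), as did *Snrpn* (-1.86).

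Stress and dissociation genes did not share a direction, with 6 of 15 immediate early genes called higher and 4 lower, both above the 17% and 13.6% of all measured genes. Through their E10.5 mean alone, which had to be higher, 3 of the 15 were measured. Members at 20 CPM or more at E8.5 numbered 12, with 3 higher (25%) and 4 lower (33.3%). Among all genes at that level 9.63% were higher and 18% lower. *Jun* and *Egr1* had 1.26 and 1.61, *Atf3* -1.19 and the chaperone *Hsp90aa1* -1.23. *Fos* was within 2-fold (0.64). Of the Hox genes only *Hoxb5* and *Hoxd8* were measured, and *Hoxd8* had counts in 10 and 11 cells.

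Outside the lists, the rule for the largest ratios among well-detected genes named several more. The uncharacterised *8430408G22Rik* had counts in 2 and 56 cells and means of 1.89 and 612 CPM. *Gbp4*, an interferon-induced GTPase, had 6.52 with 5 and 49 cells. *Hpgd*, which degrades prostaglandins, had 4.97, the endocytic protein *Ehd3* 4.89 and the lectin *Clec1a* 4.92. *Lmbr1* at 5.62 depended on 1 cell with 24493 CPM and was 1.87 without the highest cells. In the other direction stood *Cul4b*, a scaffold of ubiquitin ligases (-3.49, 7.99% of pairs), *Samsn1* (-3.13), *Gas7* (-2.85), *Phf6* (-3.23) and *Orc2*, a subunit of the replication origin complex (-2.98).

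Some of these values moved when single cells were left out. Without the highest cell of each stage, and beside the genes already named with both values, the ratio itself moved by over 1.5-fold, on the log2 scale to these values: *Cav1* 6.49, *Cd200* 5.61, *Cdkn1c* 3.37, *Il1r1* 3.93 and *Bst2* 2.17 among genes called higher, and *Apln* -4.83, *Samsn1* -4.33, *Tnc* -4.67, *Hk2* -4.24, *Sema3a* -4.54, *Slc2a3* -4.07, *Cul4b* -4.13, *Lin28b* -3.91, *Tfrc* -3.03, *Itga2b* -2.62, *Ttk* -2.33, *Bub1* -2.12, *Myc* -1.69 and *Krt18* -2.80 among genes called lower, each in the same direction as before. Without its 1 E10.5 cell *Gsta4* had no count left at that stage. Some 2-fold calls ended without cells holding transcripts of both sexes: *Kdr* (0.89), *Itga2b* (-0.68), *Flt4* (0.85), *Mef2a* (0.78), *Klf4* (0.55), *Dnmt3b* (-0.83), *Myc* (-0.60), *Hadhb* (-0.48), *Hk1* (0.83) and *Cdkn1b* (0.86). Without cells whose CPM summed to over 1500000 the same held for *Kdr* (0.78), *Flt1* (0.89), *Mef2a* (0.48), *Myc* (-0.89), *Acsl4* (-0.86) and *Hk1* (0.55). Without cells at 10% or more mitochondrial counts it held for *Kdr* (0.79), *Flt1* (0.89), *Mef2a* (0.35), *Myc* (-0.80), *Acsl4* (-0.99), *Hadhb* (-0.83), *Cdkn1b* (0.91), *Fth1* (-0.99) and *Atf3* (-0.93), and without cells with blood markers for *Ramp2* (0.97) and *Angpt2* (0.70). The arterial genes named above all stayed past 2-fold under these 4 exclusions.

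The same 2 stages were sampled in megakaryocytes (37 and 73 cells) and haematopoietic progenitors (89 and 87 cells) on the same flow cells. Their sort gates changed with stage. Per the paper, E8.5 blood lineages were told apart by TER119, CDH5 and CD41, while CD45 was added by E10.5. The E10.5 progenitors were CDH5-, CD41 low and CD45+. In the blood lineages stage and gate therefore cannot be told apart. In megakaryocytes 866 of 6661 measured genes (13%) were at least 2-fold higher at E10.5 and 692 (10.4%) lower, and in progenitors 378 of 6693 (5.65%) were higher and 652 (9.74%) lower. Of the 1223 genes higher in endothelium, 573 were measured in megakaryocytes and 168 were called higher there (29.3% of those measured there, and 19.4% of the 866 megakaryocyte calls), while 28 were called lower. In progenitors 580 were measured, 87 called higher (15% and 23.0%) and 48 lower. Of the 978 lower genes, 189 of 840 were also lower in megakaryocytes (22.5% and 27.3%) and 166 of 877 in progenitors (18.9% and 25.5%), while 40 and 9 were called higher there. In both blood lineages together 27 of the higher and 79 of the lower genes were called the same way.

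*Lin28a* was lower in all 3 populations, with log2 ratios of -6.01 in endothelium, -4.69 in megakaryocytes and -2.26 in progenitors, and *Gsta4* likewise (-6.88, -3.88 and -5.14). *B2m* was higher in all 3 (2.81, 2.01 and 2.35). *Hmga2* was lower in endothelium (-1.81) but had -0.19 in megakaryocytes and 0.11 in progenitors, and *Igf2* was higher in endothelium (2.97) but had -0.58 and -0.16 in these. S phase genes had medians of -0.91 in endothelium, -0.68 in megakaryocytes and -0.39 in progenitors, with 10 of 40 called lower in megakaryocytes (10.4% of all measured genes) and 3 of 40 in progenitors, which is no more than the 9.74% of all genes there. The endothelial receptors *Kdr* and *Flt1* had log2 ratios of -3.42 and -1.47 in progenitors against 1.05 and 1.27 in endothelium. The E10.5 progenitor gate took CDH5- cells, so stage and gate cannot be told apart in the progenitor values. Whether the populations differ in these changes was not tested.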

How the data were processed

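Single yolk sac cells were sorted, captured on a Fluidigm C1 chip, made into Nextera XT libraries and sequenced. Per the paper's methods and the labels, the authors aligned reads with Rsubread to the mouse genome (GRCm38, Ensembl annotation), counted them with featureCounts, kept 926 of 1073 cells and 15967 genes, and scaled cells with scran. The deposited files hold raw counts (unfiltered and filtered) and the authors' CPM, scaled by size factors, a signal whose sum differs from cell to cell. Per the authors, these size-scaled signal values were made from the counts before deposit. Doublets were not called here. Cells with *Xist* and Y-linked counts were instead left out as an alternative.

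Stage means of CPM over cells were compared as log2 ratios with a pseudocount of 1 (Python 3.11.15, pandas 2.3.3, numpy 2.4.6, scipy 1.17.1). No test was run, since each stage is 1 sample. A gene was measured at an average of 20 CPM over the 2 stages and called at 2-fold. Detection was 1 count or more, also on counts thinned to 580000 per cell. Scripts were checked on simulated data. Named genes were the study's 7 endothelial genes, the genes of the gate and those said to be named later. Each of 38 lists added up to its 8 largest and 3 smallest ratios. The 15 largest ratios in each direction were added among genes with an average of 50 CPM and detection in 50% of cells. That detection was required only at the stage where the gene was higher. The members and lists were chosen with earlier results of these data known. Depth ran from 589064 to 4551690 counts per cell. Alternatives changed the scaling, pseudocount, filter, average, cells and depth. Promoter sequence came from RefSeq (GRCm38.p6), and gene coordinates were found for 366 of 369 named genes.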

Additional observations from a re-analysis of the deposited data

How the results depend on the processing

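With 1 sample per stage and no replicates, no value here has a replicate check, and no paired analysis was possible because the result comes from no test. Depth limited detection of genes near 1 count per cell. The counts of genes at least 2-fold higher and lower, 1223 and 978, became 2895 and 2659 with no filter on low values. With a mean of 100 CPM and detection in 50% of cells at either stage they became 467 and 436. They became 346 and 3864 by the mean of log2(CPM + 1) over cells, where the median over all measured genes was -1.10, and 347 and 4159 by the median CPM over cells, where it was -1.34. The share of calls that were higher was 55.6% as reported, 47.9% on each cell's own total (950 and 1032), 40.8% with all captured cells (864 and 1256, median -0.21), 36.8% without the highest cell of each stage and 50.0% by mean log2 with its median subtracted (1356 and 1354). Of 193 named calls, 140 by median CPM to 193 under other settings stayed 2-fold the same way.

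Some log2 ratios changed sign. By mean log2 they became, for *Hoxb5* -0.000548, *Lcp1* -0.0329, *Ndufa11* -0.0535, *Cyr61* -0.0564, *Pdpn* -0.13, *Ndufb8* -0.18, *Cox8a* -0.20, *Lss* -0.20, *Egr1* -0.28, *Acta2* -0.38, *Mef2a* -0.38, *Rps23* -0.63, *Smad5* -0.82, *Mvk* -1.10, *Mfng* -1.20 and *Slc7a1* -1.34. With the median over genes subtracted, *Mvk* was -0.00753, *Mfng* -0.10, *Slc7a1* -0.25 and *Krt8* 0.57. By median CPM the Tie list became -0.0647 and the Hox list -0.22, with *Ndufa11* -0.0244, *Cox8a* -0.0664, *Mef2a* -0.10, *Lcp1* -0.34, *Egr1* -0.41, *Hoxb5* -0.44, *Angpt2* -0.48, *Lss* -0.80, *Rps23* -0.93, *Smad5* -2.02, *Mfng* -2.24, *Slc7a1* -2.27, *Cyr61* -2.46 and *Mvk* -2.88. Without cells whose CPM summed to over 1500000, *Acta2* was -0.20, *Rps23* -0.29, *Slc7a1* -0.31 and *Mfng* -1.09. Without cells at 10% or more mitochondrial counts, *Acta2* was -0.0377, *Mvk* -0.12, *Rps23* -0.46, *Slc7a1* -0.49 and *Mfng* -1.17. Without cells holding transcripts of both sexes, *Slc7a1* was -1.12, *Mfng* -1.17 and *Acta2* -5.23. Without the highest cell of each stage, *Rps23* was -0.27, *Mfng* -1.06 and *Pdpn* -1.52. The alternatives without cells of high CPM sums, of high mitochondrial share and without the highest cells, and the subtraction in mean log2, were added after the data were seen. The cause of these changes was not tested, beyond the single high cells named above.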

Other observations

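X-linked genes were lower at E10.5 as a set of positions that no list used. In endothelium the 256 measured X-linked genes other than *Xist* had a median log2 ratio of -0.30, with 10.55% called higher and 25.4% lower. The 6527 autosomal genes had a median of 0.02, with 16.8% higher and 13.0% lower, and the medians of single autosomes lay between -0.24 and 0.21. In megakaryocytes 240 X-linked genes had a median of -0.16 (autosomes -0.08), and in haematopoietic progenitors 248 had -0.23 (autosomes -0.08).

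The sexes mixed in a stage are not named in the labels, so the ratio was also taken within cells grouped by their own sex-linked counts. In cells with *Xist* but not Y-linked counts (5 at E8.5, 19 at E10.5) the X-linked median was -0.28 and the autosomal one 0.06. In cells with Y-linked counts but not *Xist* (15 and 16) they were -0.37 and 0.03. In cells with both (59 and 26) they were -0.47 and -0.11. The E8.5 group with *Xist* alone holds too few cells for its value to be firm. The X-linked median was below the autosomal median in each of these groups. No test was run and the cause was not tested.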
